A study of Mus musculus with 15 samples.

Results

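The genes described here are 38 genes for products of fibroblasts and for non-collagen proteins of the extracellular matrix, followed across 5 sorted populations of mouse mammary cells. They were taken by name and comprised 6 small leucine-rich proteoglycans, 8 proteins of elastic fibres and microfibrils, 6 enzymes that crosslink or process the matrix, 11 adhesive and matricellular proteins, both nidogens of the basement membrane, and 5 receptors, cytoskeletal proteins and other products of fibroblasts. On the array, 36 of the 38 had a probe set that carried their symbol alone, out of 18193 genes with such a probe set. A gene was tested if its probe set exceeded the median intensity of an array in at least 3 of the 15 arrays, and all 36 were among the 12107 genes that did. Nid2 passed with the fewest arrays, 4, which came from MaSC and ALP, and Mfap4 passed with 6, from AL and ALP. Loxl2 shared its probe sets with another symbol and was left out, and Fbn1 was not analysed here.

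Transcripts were measured in total RNA from C57BL/6 females on Affymetrix whole-genome expression arrays, with 3 arrays per population. The basal fraction that is enriched for mammary stem cells (MaSC, CD24+ and CD29 high) was sorted from wild-type adult virgins, as were CD24 high CD29+ luminal cells, divided into CD61+ luminal progenitors (LP) and CD61- mature luminal cells (ML), and all 3 came from the same 3 cell suspensions. In the Wap-Cre;R26Y line, YFP+ cells of pregnant females at midgestation were sorted as alveolar luminal cells (AL), and those of adult virgins as alveolar luminal stem/progenitor cells (ALP). All 5 were lineage negative, and the study's lineage markers were CD31, CD45 and TER119, of endothelial cells, leukocytes and erythroid cells. No marker of fibroblasts was named among them. The promoter of the milk protein gene Wap drives Cre there, and the mark (yellow fluorescent protein) stays in descendants of any cell that once expressed it. Whether the AL and ALP arrays came from separate animals is not given in the sources used here, so p-values measure the spread between these arrays, which may in part be technical. The comparisons set the virgin basal fraction against each luminal subset, these subsets against each other, and the marked cells of virgin and pregnant glands against both subsets and one another.

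Fibroblasts of the mammary stroma lie around the ducts and in the fat pad, and they secrete most of the collagens, proteoglycans and elastic fibre proteins on which the epithelium rests. Basal (myoepithelial) cells face this stroma across the basement membrane and secrete matrix proteins of their own. Small leucine-rich proteoglycans decorate collagen fibrils, lysyl oxidases crosslink collagen and elastin, and matricellular proteins such as tenascins, thrombospondins and periostin modify how cells attach to the matrix.

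Values are the deposited normalised intensities, which have no unit. They were compared only within a probe set, between populations, because the brightness of a probe set also depends on its sequence. Array medians ran from 136.8 to 209.9, with ALP replicate 3 highest. Pearson correlations over all tested genes between arrays of a population were 0.943 to 0.973 in MaSC, 0.976 to 0.986 in LP, 0.979 to 0.983 in ML, 0.984 to 0.989 in AL and 0.901 to 0.970 in ALP. Basal and milk protein markers were highest in the populations labelled so. The mean log2 intensity of 10 basal markers was 13.17 to 13.28 in the MaSC arrays and 6.93 to 11.84 in the others. That of 7 milk protein genes was 12.80 to 13.23 in the AL arrays and 5 to 10.26 in the others. The mean of 8 luminal epithelial markers was 13.30 to 13.53 in all LP, ML, AL and ALP arrays, and 12.53 to 13.20 in MaSC.

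ALP replicate 3 stood apart from the other ALP arrays. The mean log2 intensity of the 36 fibroblast and matrix genes was 10.64, 10.79 and 12.40 in the ALP arrays, that of 11 leukocyte markers was 7.16, 7.32 and 11.90, that of 10 endothelial markers was 7.96, 8.92 and 10.92, and that of 10 basal markers was 9.55, 9.31 and 11.84. The ratio of ALP replicate 3 to the mean of the other ALP arrays had a median of 3.17 over the 36 genes, from 1.02 for Thbs1 to 9.47 for Fap, against 41.8 over 8 tested leukocyte markers, 5.26 over 7 tested endothelial markers, 3.96 over 10 basal markers and 0.907 over 8 luminal epithelial markers. Ptprc, which codes for CD45, measured 43.3, 58.8 and 2790 in the ALP arrays and at most 93.6 in any other array, and Pecam1, which codes for CD31, measured 110, 250 and 928 in ALP and at most 103 elsewhere. The part of these cells in the levels of the fibroblast and matrix genes was not tested. ALP results are therefore given with and without that array. In sorted cells measured in bulk, more cells of a type and more RNA per cell cannot be told apart.

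**Figure D1:**
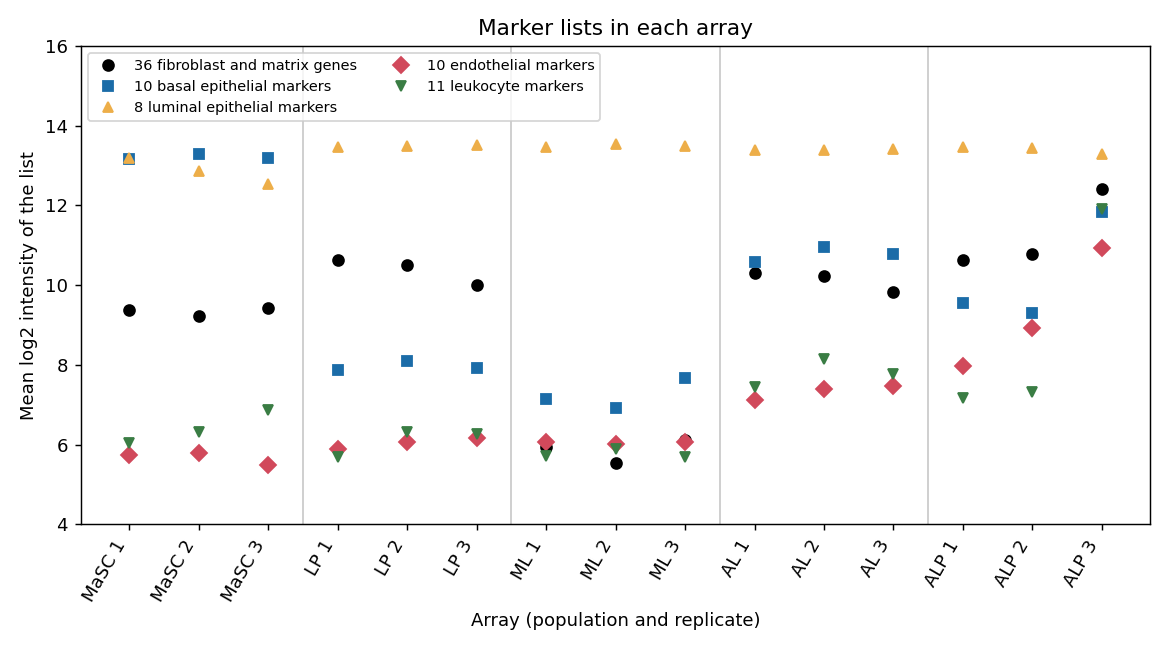
Mean log2 intensity (vertical axis) of the 36 fibroblast and matrix genes and of 4 marker lists in each of the 15 arrays (horizontal axis), each point being 1 list in 1 array. The fibroblast and matrix genes lie at 5.53 to 6.12 in ML and at 9.22 or above in each other array, while the luminal epithelial markers lie at 12.53 or above throughout; in ALP replicate 3 the leukocyte, endothelial and basal lists rise together with the fibroblast and matrix genes.

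Every one of the 36 genes varied between the populations by limma's F test, at an adjusted p under 0.05, as did 84.7% of all genes tested. ML held the highest population mean log2 intensity for none of them and the lowest for all but Dcn, Htra3, Fap and Tnxb, which were lowest in MaSC. The highest mean was in ALP for 20 genes, in MaSC for 13 (Bgn, Fmod, Eln, Fbln1, Fbln2, Mfap2, Postn, Thbs1, Sparc, Vcan, Fstl1, Nid2 and Vim), in LP for 2 (Pi16 and Clec3b) and in AL for 1 (Tnc). These counts include ALP replicate 3. Without it the difference of ALP from LP was positive in 18 of the 36 genes, against 32 with it. It was then below 0 for Ogn, Mfap5, Lox, Loxl1, Pcolce, Htra3, Fap, Fn1, Thbs2, Dpt, Nid1 and Pdgfra, so ALP was no longer highest for these. Between 7 and 11 of the 36 exceeded the array median in the ML arrays, against 27 to 28 in MaSC, 31 to 33 in LP, 34 to 35 in AL and 35 to 36 in ALP. Over all 18193 genes with a probe set of their own, tested or not, the share was 59.0% to 62.9% in every array. Folds against a population that lies near the low end of the arrays are imprecise. Single arrays were often lowest or highest for most of the 36 genes: LP replicate 3 was the lowest LP array for 33 of them, AL replicate 3 the lowest AL array for 33, ML replicate 2 the lowest ML array for 20, and ALP replicate 3 the highest ALP array for 35, the exception being Thbs1.

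**Figure D2:**
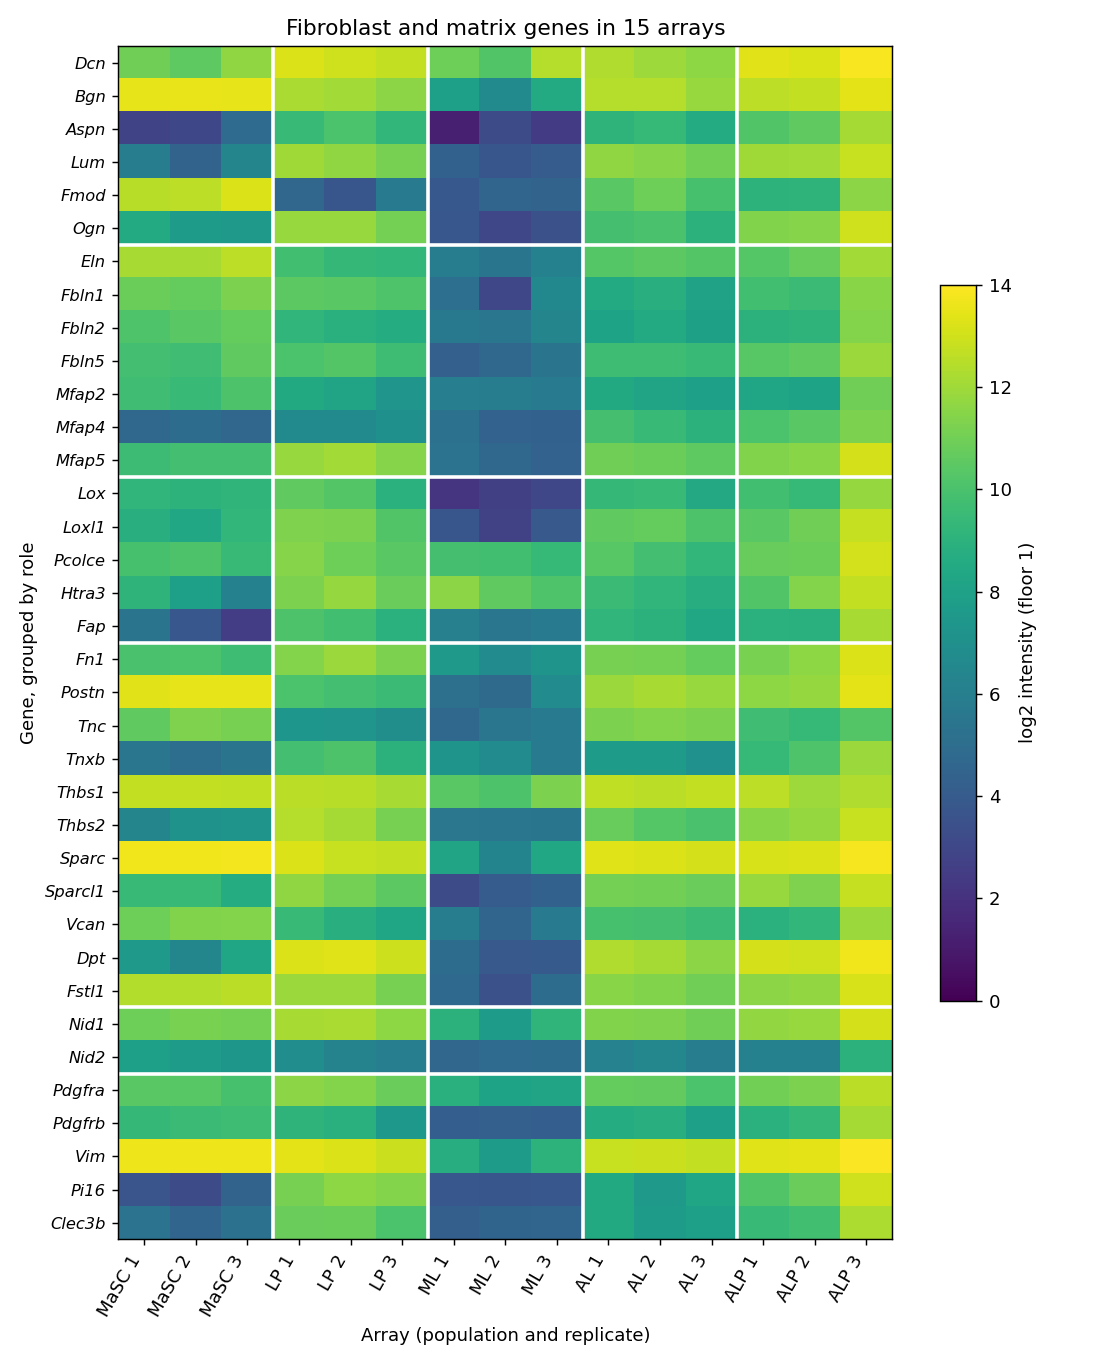
Heat map of log2 intensity (colour, 0 to 14, with intensities below 1 set to 1) of the 36 genes (rows, grouped by role and separated by white lines) in the 15 arrays (columns, by population and replicate). The ML columns are dark in most rows, the MaSC columns split into bright and dark rows, and the column of ALP replicate 3 is the brightest of its population in 35 of 36 rows.

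Among the small leucine-rich proteoglycans, secreted proteins that bind collagen fibrils, Fmod and Bgn were brightest in basal cells, while Dcn, Aspn, Lum and Ogn were brightest in ALP, then LP and then AL. Without ALP replicate 3 the highest mean of Ogn was in LP. The population orders of Fmod and Ogn were the most opposed among the proteoglycans with a promoter in the table used, with 5 pairs of populations in opposite order, and Fmod and Aspn reached the same number. Aspn and Ogn, whose genes lie on chromosome 13 with Omd between them, had no pair of populations in opposite order. These orders include ALP replicate 3. Without it the log2 difference of ALP from LP was 0.77 for Aspn, 4.38 for Fmod and -0.17 for Ogn. ALP and LP then stood in opposite order in Ogn against both Aspn and Fmod. The 250 bases before the gene start of these 3 genes are shown for that contrast, which was chosen after the values were seen; they are RefSeq sequences of the GRCm38.p6 build on the plus strand, for Fmod at chr1:134037004-134037253, for Ogn at chr13:49607765-49608014 and for Aspn at chr13:49544193-49544442. Capitals mark TATAAA or CCAAT on either strand, so that the reverse strand appears as TTTATA or ATTGG.
Fmod: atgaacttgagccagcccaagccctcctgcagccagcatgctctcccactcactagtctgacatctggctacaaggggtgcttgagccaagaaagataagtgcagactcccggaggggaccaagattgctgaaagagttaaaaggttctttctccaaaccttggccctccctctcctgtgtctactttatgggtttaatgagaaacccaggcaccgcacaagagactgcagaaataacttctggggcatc
Ogn: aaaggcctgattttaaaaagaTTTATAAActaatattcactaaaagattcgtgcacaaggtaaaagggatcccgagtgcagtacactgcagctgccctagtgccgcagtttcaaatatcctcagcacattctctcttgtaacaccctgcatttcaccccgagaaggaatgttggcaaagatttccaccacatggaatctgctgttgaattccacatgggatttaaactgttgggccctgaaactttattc
Aspn: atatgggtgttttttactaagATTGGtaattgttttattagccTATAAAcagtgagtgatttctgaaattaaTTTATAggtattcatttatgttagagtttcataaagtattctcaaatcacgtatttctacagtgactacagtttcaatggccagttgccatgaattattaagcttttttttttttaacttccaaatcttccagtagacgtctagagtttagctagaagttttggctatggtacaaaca
The Fmod window held no match, that of Ogn the overlapping pair TTTATA and TATAAA, whose first bases lay 229 and 227 bases before the gene start, and that of Aspn ATTGG at 229, TATAAA at 207 and TTTATA at 178 bases before it. Of the 36 genes, 22 had a promoter entry, and Dcn, Lum, Eln, Mfap4, Mfap5, Lox, Loxl1, Fap, Fn1, Thbs1, Sparcl1, Nid2, Pdgfrb and Clec3b had none. TATAAA occurred in 5 of these 22 (Aspn, Ogn, Thbs2, Tnc and Vim), or 22.7% against 13.0% of 27025 promoters of the same length, CCAAT in 9 of 22, or 40.9% against 34.5%, and TGACTCA, the letters bound by AP-1, in 1 of 22 (Tnxb), or 4.55% against 4.44%. A match to these letters describes the sequence alone.

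Fmod, which codes for fibromodulin, a keratan sulfate proteoglycan of collagen fibrils, measured 5706, 6236 and 9755 in MaSC, 24.9, 13.4 and 52.6 in LP, 14.3, 23.5 and 22.2 in ML, 1368, 1912 and 984 in AL and 530.4, 552 and 3022 in ALP. All MaSC arrays lay above all others, the AL and ALP arrays were intermediate and overlapped each other, and LP and ML overlapped at the bottom. MaSC exceeded LP 270-fold (log2 difference 8.08 ± 0.64 SE, limma adjusted p = 9.33e-06) and ML 359-fold. Bgn, which codes for biglycan, measured 11550, 11770 and 11610 in MaSC, 4856, 4344 and 3061 in LP, 243, 104 and 378 in ML, 5550, 5523 and 3730 in AL and 6165, 6763 and 11140 in ALP. The MaSC arrays were again the highest and the ML arrays the lowest, with no overlap of either with another population, and MaSC exceeded LP 2.90-fold (1.54 ± 0.39 SE, limma adjusted p = 0.00904).

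Ogn, which codes for osteoglycin, measured 377, 206 and 188 in MaSC, 3717, 3692 and 2117 in LP, 14.1, 7.78 and 11.3 in ML, 933, 1011 and 502 in AL and 2645, 2830 and 7978 in ALP. LP lay above AL and AL above MaSC without overlap, and ML lay below all. Aspn, which codes for asporin, measured 7.36, 8.10 and 29.5 in MaSC, 719.6, 1055 and 626 in LP, 2.31, 9.65 and 5.62 in ML, 559.9, 658 and 386 in AL and 1179, 1508 and 4357 in ALP. LP, AL and ALP stood far above MaSC and ML, whose arrays overlapped, and LP exceeded MaSC 64.6-fold. Lum, which codes for lumican, averaged 3214 ± 936 in LP, 2712 ± 580 in AL and 5262 ± 1800 in ALP, against 55.5 ± 31.4 in MaSC and 16.9 ± 3.22 in ML (SD, n = 3 arrays each). Dcn, which codes for decorin and lies next to Lum on chromosome 10, kept a high level in ML: its ML arrays measured 1923, 1166 and 5624, overlapping the MaSC range of 1456 to 3212, and its LP arrays 9679, 8096 and 6631. ML replicate 3 carried that high Dcn value, and the difference of LP from ML was 1.79 ± 0.48 SE on the log2 scale with it and 2.42 without it.

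The proteins of elastic fibres and microfibrils divided in the same way. Eln (elastin), Fbln1 and Fbln2 (fibulins) and Mfap2 (a microfibril protein) had their highest mean in MaSC, and Fbln5, Mfap4 and Mfap5 had theirs in ALP. Without ALP replicate 3 the log2 difference of ALP from LP was -0.33 for Mfap5, whose highest mean was then in LP. Eln measured 4668, 4629 and 6222 in MaSC, 875, 643 and 622 in LP, 61.1, 44.1 and 70.8 in ML, 1249, 1441 and 1234 in AL and 1270, 1686 and 4220 in ALP. MaSC was above every other array and exceeded LP 7.27-fold (2.86 ± 0.36 SE, limma adjusted p = 0.000124), AL and ALP overlapped each other above LP, and ML was lowest. Mfap5, which codes for a microfibril-associated glycoprotein, had the widest range of population means in the group, 7.17 on the log2 scale, and measured 782, 885 and 918 in MaSC, 3638, 4235 and 2798 in LP, 40.5, 26.4 and 20.95 in ML, 1978, 1854 and 1480 in AL and 2623, 2967 and 8676 in ALP. Its LP arrays exceeded its MaSC arrays without overlap, by 4.08-fold, and its ML arrays lay below all others.

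Fbln5, which codes for a fibulin that organises elastic fibres, measured 902, 830.4 and 1532 in MaSC, 1045, 1222 and 807 in LP, 19.5, 25.95 and 42.1 in ML, 814, 803 and 683 in AL and 1306, 1509 and 3756 in ALP. MaSC and LP overlapped (log2 difference 0.05 ± 0.39 SE, limma adjusted p = 0.931), and ML alone stood apart below. Fbln1 measured 1839, 1631 and 2411 in MaSC, 1440, 1352 and 1148 in LP, 34.8, 7.81 and 94.3 in ML, 379.7, 448 and 269 in AL and 868, 745 and 2892 in ALP. Its MaSC arrays lay above its LP arrays, but the difference did not pass (0.56 ± 0.73 SE, limma adjusted p = 0.571), and its ML arrays spread from 7.81 to 94.3, so that its folds against ML carry the widest error of this group. Fbln2 measured 1149, 1394 and 1663 in MaSC, 596, 468 and 404 in LP, 49.7, 44.8 and 82.1 in ML, 276, 370.3 and 251 in AL and 514, 549 and 2687 in ALP. MaSC exceeded LP 2.87-fold, with no overlap, and LP exceeded AL without overlap although that difference did not pass.

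Mfap2 measured 823, 689 and 1101 in MaSC, 369.9, 293 and 159 in LP, 63.8, 58.9 and 55.9 in ML, 365, 285 and 236 in AL and 302, 279 and 2030 in ALP. ALP replicate 3 alone lay above the MaSC arrays, and the other ALP arrays lay within the LP range of 158.8 to 369.9. Mfap4, which codes for a microfibril-associated glycoprotein, averaged 27.2 ± 3.64 in MaSC, 112 ± 16.2 in LP, 26.3 ± 9.43 in ML, 723 ± 210 in AL and 1588 ± 699 in ALP (SD, n = 3). It was the one gene of the 36 that exceeded the array median only in the Wap-Cre marked populations, and neither marked population overlapped LP.

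Among the enzymes, Lox and Loxl1, lysyl oxidases that crosslink collagen and elastin, were at their lowest in ML. Loxl1 measured 436, 339 and 625 in MaSC, 2491, 2415 and 1169 in LP, 13.4, 6.58 and 14.8 in ML, 1547, 1633 and 1089 in AL and 1350, 1967 and 6930 in ALP. LP exceeded MaSC 4.24-fold without overlap, and ML lay far below. Lox measured 592, 522 and 577 in MaSC, 1534, 1242 and 498 in LP, 4.35, 6.18 and 7.91 in ML, 649, 686 and 352 in AL and 877, 657 and 3534 in ALP. Its LP arrays overlapped those of MaSC, AL and ALP, its MaSC arrays lay below its ALP arrays, and every ML array was at 7.91 or less. Fap, which codes for the membrane protease fibroblast activation protein, measured 41.1, 13.98 and 5.94 in MaSC, 1070, 882 and 491 in LP, 67.5, 44.9 and 53.3 in ML, 603, 505 and 343 in AL and 493, 478 and 4599 in ALP. LP exceeded MaSC 51.4-fold (limma adjusted p = 0.000328), ML lay between them, and ALP replicate 3 measured 9.47 times the mean of the other ALP arrays, the largest such ratio of the 36 genes.

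Htra3 did not follow the low level in ML, and Pcolce was lowest in ML but close to its level in MaSC and AL. Htra3, a secreted serine protease, averaged 2581 ± 894 in LP and 1919 ± 1020 in ML, which overlapped, against 288 ± 245 in MaSC and 584 ± 161 in AL (SD, n = 3). Its MaSC arrays, 552.9, 240 and 70.7, lay below all ML arrays, 3074, 1558 and 1125. Pcolce, which codes for an enhancer of procollagen processing, averaged 823 ± 134 in ML, 924 ± 193 in MaSC and 946 ± 341 in AL, whose arrays overlapped. It averaged 2058 ± 743 in LP and 3951 ± 3750 in ALP (SD, n = 3), and its LP arrays lay above its ML arrays without overlap.

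The adhesive and matricellular group held the largest difference between LP and ML. Dpt, which codes for dermatopontin, a small collagen-binding matrix protein, measured 181, 85.5 and 314 in MaSC, 9763, 10270 and 7754 in LP, 30.7, 14.9 and 15.8 in ML, 5154, 4375 and 3025 in AL and 8617, 8275 and 13420 in ALP. LP exceeded ML 476-fold (8.89 ± 0.43 SE, limma adjusted p = 2.13e-07) and MaSC 54.3-fold, and AL lay below LP without overlap. Sparcl1, which codes for the secreted glycoprotein hevin, measured 701, 730.3 and 409 in MaSC, 3213, 2169 and 1420 in LP, 9.17, 16.6 and 20.1 in ML, 2153, 2071 and 1788 in AL and 3726, 2470 and 6871 in ALP. LP overlapped both AL and ALP, MaSC was lower than each, and ML was at 20.1 or less. Fstl1, which codes for a secreted follistatin-like glycoprotein, measured 5255, 5436 and 5910 in MaSC, 3777, 3820 and 2258 in LP, 28.1, 10.95 and 31.3 in ML, 2879, 2638 and 1998 in AL and 3000, 3386 and 9253 in ALP. Its MaSC arrays exceeded its LP arrays without overlap, but the difference did not pass (0.79 ± 0.45 SE, limma adjusted p = 0.187), and ML lay 260-fold below MaSC.

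Postn, which codes for periostin, a matricellular protein that binds integrins, measured 10640, 11420 and 11270 in MaSC, 1043, 892 and 749 in LP, 35.4, 28.7 and 109.9 in ML, 3786, 4582 and 3611 in AL and 3140, 3557 and 10950 in ALP. MaSC exceeded LP 12.5-fold (3.65 ± 0.50 SE, limma adjusted p = 0.000218), and AL and ALP lay above LP without overlap. Tnc, which codes for tenascin C, measured 1549, 2553 and 2225 in MaSC, 164, 156 and 121 in LP, 26.3, 45.4 and 52.99 in ML, 2421, 2751 and 2406 in AL and 835, 664 and 1224 in ALP. It was the one gene of the 36 with its highest mean in AL, where the arrays overlapped those of MaSC, and ALP lay between these and LP. Vcan, which codes for versican, a hyaluronan-binding proteoglycan, measured 1893, 2643 and 2686 in MaSC, 707, 456 and 307 in LP, 61.2, 23.5 and 54.9 in ML, 959.5, 925 and 747 in AL and 490.4, 617 and 3828 in ALP. MaSC exceeded LP 5.14-fold without overlap.

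Sparc, which codes for a collagen-binding matricellular protein, measured 13320, 13510 and 13690 in MaSC, 9693, 7334 and 6603 in LP, 291, 80.6 and 329 in ML, 10360, 9825 and 8907 in AL and 9214, 9681 and 14200 in ALP. Its MaSC arrays exceeded all LP, AL and ML arrays, without passing the test against LP (0.80 ± 0.41 SE, limma adjusted p = 0.148). A further probe set of Sparc did pass there (1.73, limma adjusted p = 0.00155). Thbs1, which codes for thrombospondin 1, measured 6656, 6676 and 6402 in MaSC, 6110, 5822 and 4582 in LP, 1356, 1104 and 2461 in ML, 6421, 5959 and 6773 in AL and 6244, 4028 and 5223 in ALP. MaSC, LP, AL and ALP lay within 4028 to 6773, and ML, though lowest, was at 1104 to 2461. A further probe set of Thbs1 was higher in MaSC than in LP (1.35, limma adjusted p = 0.00322). It was also higher in AL than in LP (1.31, adjusted p = 0.00315) and ALP (0.83, adjusted p = 0.0361). Thbs2 differed from Thbs1: it averaged 4024 ± 1660 in LP against 127 ± 37.6 in MaSC and 45.03 ± 2.02 in ML (SD, n = 3). Fn1 (fibronectin) averaged 2980 ± 779 in LP, 948 ± 136 in MaSC and 149 ± 38.7 in ML, and Tnxb (tenascin X) 827 ± 293, 40.4 ± 6.29 and 104 ± 49.7 in that order (SD, n = 3), so that the Fn1 arrays of MaSC exceeded those of ML and the Tnxb arrays of MaSC were all below those of ML.

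The nidogens, which link laminin and collagen networks in the basement membrane, had opposite orders in MaSC and LP, though neither difference passed. Nid1 measured 1948, 2360 and 2185 in MaSC, 4613, 4785 and 3128 in LP, 508, 213 and 582 in ML, 2585, 2512 and 1999 in AL and 3344, 3718 and 8833 in ALP. Nid2 measured 240.4, 216 and 168 in MaSC, 116, 78.03 and 62.7 in LP, 24.2, 30.3 and 31.2 in ML, 73.3, 90.1 and 62.1 in AL and 71.6, 70.2 and 508 in ALP. For Nid1 LP lay above MaSC (log2 difference of MaSC from LP -0.93 ± 0.40 SE, limma adjusted p = 0.0871), and for Nid2 MaSC lay above LP (1.31 ± 0.59 SE, limma adjusted p = 0.100), both without overlap. The Nid2 value of ALP replicate 3 exceeded every other array of that gene.

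The last group held receptors, vimentin and secreted products of fibroblasts. Pi16, a peptidase inhibitor known as a marker of a fibroblast subset, measured 12.8, 9.49 and 21.8 in MaSC, 2218, 3101 and 2695 in LP, 14.2, 13.4 and 13.7 in ML, 368, 181 and 295 in AL and 1192, 1812 and 7990 in ALP. LP exceeded MaSC 191-fold and ML 192-fold, MaSC and ML overlapped, and AL lay between them and LP. Clec3b, which codes for the plasminogen-binding protein tetranectin, measured 39.6, 23.8 and 38.7 in MaSC, 1789, 1869 and 1060 in LP, 18.7, 22.97 and 23.96 in ML, 362, 207 and 244 in AL and 713, 884 and 4989 in ALP. Its order was that of Pi16, with LP 46.0-fold above MaSC.

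Pdgfrb, which codes for a receptor of platelet-derived growth factor found on pericytes and fibroblasts, measured 638, 753 and 805 in MaSC, 555, 476 and 175 in LP, 18.02, 19.9 and 18.3 in ML, 408, 434 and 235 in AL and 483, 629.7 and 4370 in ALP. MaSC lay above LP without overlap, but the difference did not pass (1.02 ± 0.68 SE, limma adjusted p = 0.260), and ALP replicate 3 was the brightest of all arrays. Pdgfra, the receptor widely used to mark fibroblasts, averaged 2515 ± 625 in LP, 1221 ± 224 in MaSC, 344 ± 107 in ML, 1432 ± 335 in AL and 3483 ± 2170 in ALP (SD, n = 3). Vim, an intermediate filament protein of mesenchymal and basal cells, measured 12640, 13020 and 12730 in MaSC, 11030, 9676 and 7613 in LP, 426, 212 and 535 in ML, 7260, 7655 and 6671 in AL and 10270, 11190 and 15230 in ALP. All its MaSC arrays exceeded those of LP and AL, and ML lay 35.1-fold below MaSC.

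**Figure D3:**
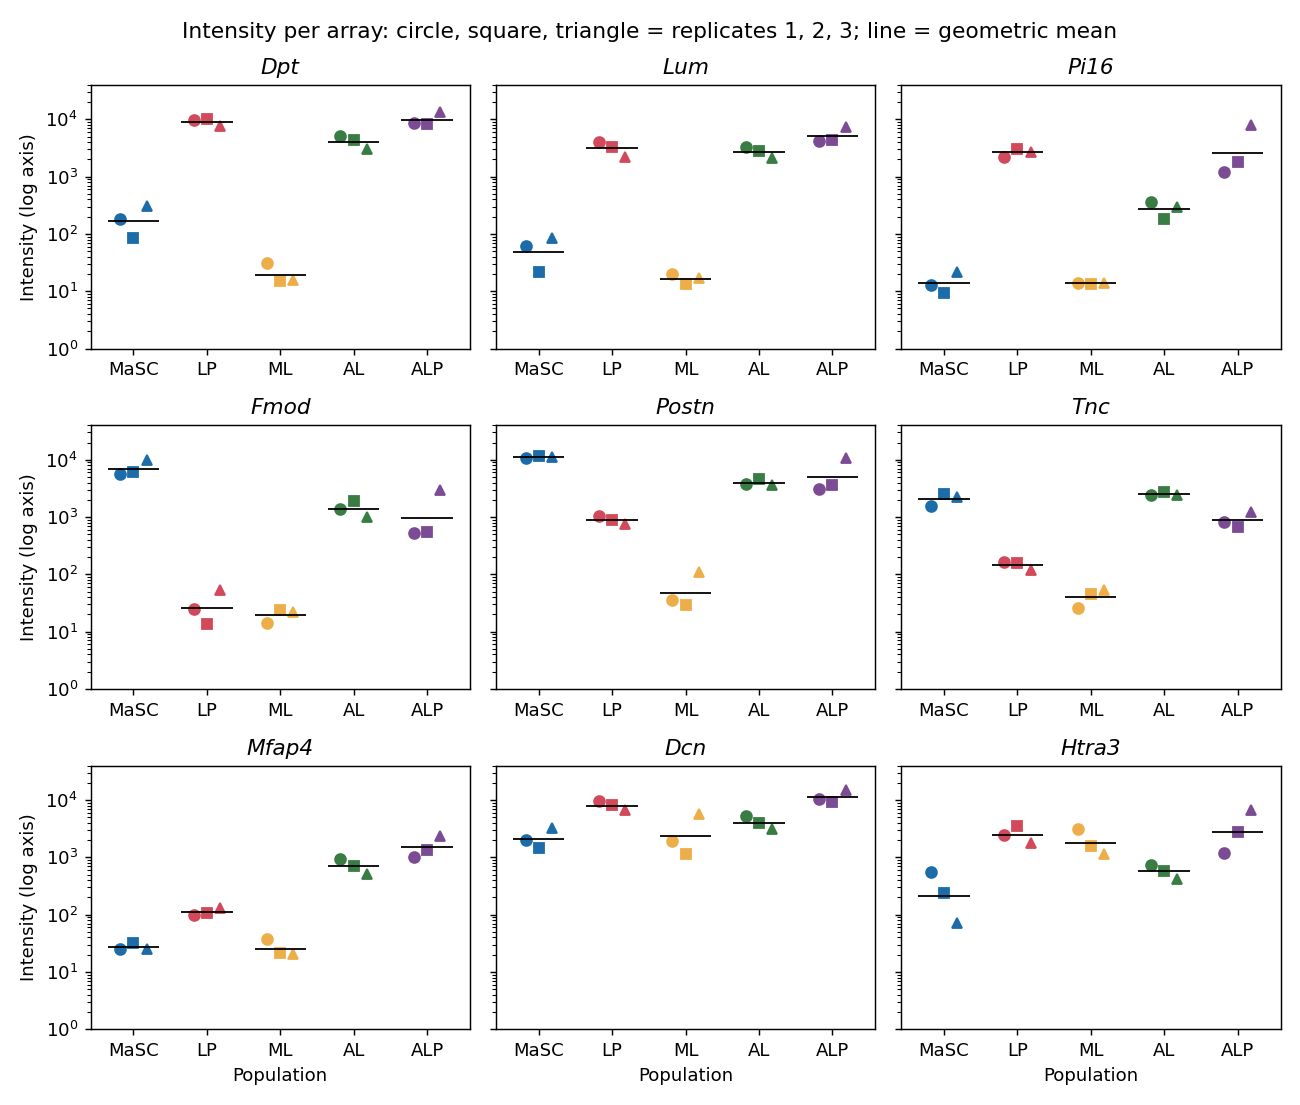
Intensity per array (vertical axis, log scale) of 9 of the genes in the 5 populations (horizontal axis), with circles, squares and triangles for replicates 1, 2 and 3 and a line at the geometric mean. Dpt, Lum and Pi16 are high in LP and low in MaSC and ML, Fmod, Postn and Tnc are high in MaSC and low in ML, Mfap4 is high in AL and ALP alone, and Dcn and Htra3 stay high in ML.

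Between LP and ML, sorted from the same suspensions and parted by CD61, 33 of the 36 genes were higher in LP and 0 were lower, against 27.3% of all tested genes higher and 21.7% lower. The median log2 difference was 4.25 over the 36 genes and 0.04 over all genes. All 7 elastic fibre genes, all 11 adhesive and matricellular genes, both nidogens and all 5 receptor and fibroblast product genes were higher in LP, as were 5 of 6 proteoglycans and 3 of 5 enzymes. After Dpt the largest differences were those of Ogn (8.16 ± 0.46 SE, 286-fold), Pi16 (7.59 ± 0.57), Lum (7.55 ± 0.43), Loxl1 (7.45 ± 0.55) and Lox (7.36 ± 0.58). Fmod (0.41, limma adjusted p = 0.616), Htra3 (0.50, adjusted p = 0.599) and Pcolce (1.27, adjusted p = 0.0604) did not pass. The arrays of the populations overlapped for Fmod and Htra3 and did not for the other 34, against 66.6% of all tested genes without overlap.

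Other fibroblast genes differed in the same direction. Of 12 fibroblast collagens 10 were higher in LP and 0 lower, those with the largest t statistics being Col3a1 (7.33 on the log2 scale), Col1a2 (7.10) and Col1a1 (5.62), and of 29 other matrix and fibroblast genes 24 were higher and 0 lower, with Serpinf1 (7.31), Cd34 (7.66) and Igfbp6 (6.44) first by t. The mean log2 intensity of endothelial markers was 5.89 to 6.17 in LP arrays against 6.02 to 6.07 in ML arrays, and that of leukocyte markers 5.69 to 6.32 against 5.70 to 5.90. Of 7 tested endothelial markers Tek was higher in LP and Vwf and Eng were lower, and of 8 leukocyte markers Cd68 was higher. The pericyte list was at 7.5 to 7.75 in LP against 6.19 to 6.61 in ML, with 3 of 5 tested markers (Abcc9, Anpep and Mcam) higher and 0 lower. Ptprc was at 11.2 to 27.4 in all MaSC, LP and ML arrays. The basal list was at 7.87 to 8.11 in LP against 6.93 to 7.68 in ML, with 3 of 10 markers (Tagln, Krt17 and Oxtr) higher in LP, and none of 8 luminal epithelial markers differed at an adjusted p under 0.05. The part of fibroblasts, pericytes or basal cells in the LP sort in these differences was not tested. The call of Nid2 (1.54, adjusted p = 0.0484) was lost when any of the 6 arrays was left out (adjusted p 0.062 to 0.144), and that of Mfap2 without LP replicate 1 (adjusted p = 0.0513). Without ML replicate 2 the differences of Fbln1 and Sparc went from 5.47 to 4.51 and from 5.30 to 4.65, and without ML replicate 3 those of Dcn, Fbln1 and Postn went from 1.79 to 2.42, from 5.47 to 6.31 and from 4.20 to 4.80. Centring each array on its median moved the median of all genes to -0.20 and the share of called genes higher in LP from 55.7% to 30.3%, with 32 of the 36 higher and 0 lower and a median of 4.01 over them.

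Between MaSC and LP the 36 genes went in both directions, 8 higher in MaSC and 17 lower, against 15.7% of all tested genes higher and 23.1% lower. The 8 were Fmod, Tnc, Postn, Eln, Vcan, Mfap2, Bgn and Fbln2, 2 proteoglycans, 3 elastic fibre proteins and 3 matricellular proteins. The 17 lower in MaSC were Pi16, Lum, Aspn, Dpt, Fap, Clec3b, Thbs2, Tnxb, Ogn, Htra3, Loxl1, Mfap4, Mfap5, Dcn, Sparcl1, Fn1 and Pdgfra, which held 4 of 6 proteoglycans, 3 of 5 enzymes and 3 of 5 receptor and fibroblast product genes. The differences ran from 8.08 for Fmod to -7.58 for Pi16 on the log2 scale, with a median of -0.98, against -0.07 over all genes. In 34 of the 36 genes the arrays of the populations did not overlap, against 54% of all tested genes, Fbln5 and Lox being the exceptions.

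**Figure D4:**
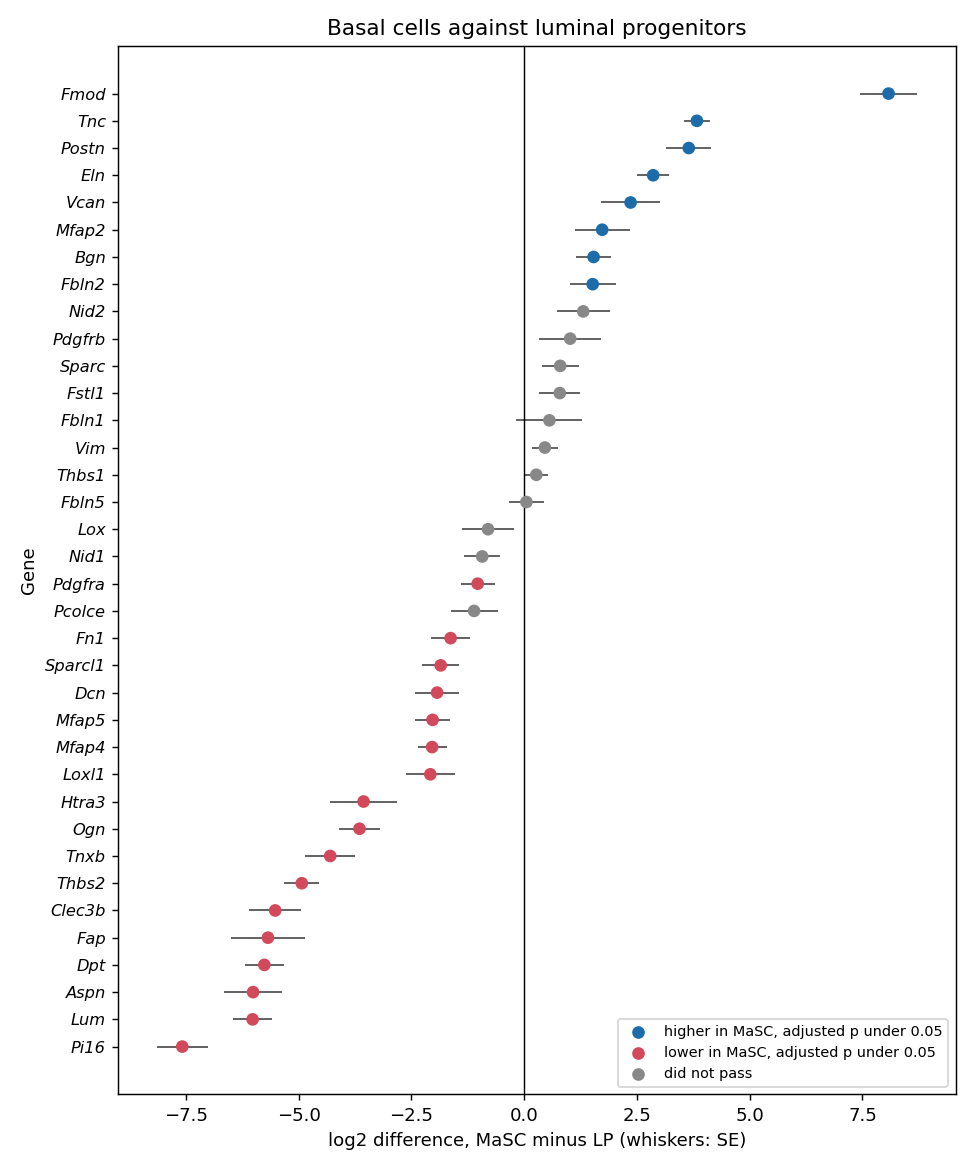
Log2 difference of MaSC from LP (horizontal axis, whiskers 1 SE) for each of the 36 genes (vertical axis, ordered by the difference). Blue points are the 8 genes higher in MaSC at an adjusted p under 0.05, red points the 17 lower, and grey points the 11 that did not pass; the differences span 8.08 to -7.58.

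Fibroblast collagens also went in both directions, with 3 of 12 higher in MaSC and 5 lower, the lower ones being by t first Col3a1 (-2.81), Col1a1 (-3.23) and Col1a2 (-2.61), and of 29 other matrix and fibroblast genes 9 were higher and 12 lower. All 10 basal markers were higher in MaSC and 7 of 8 luminal epithelial markers lower. The mean of endothelial markers was 5.49 to 5.80 in MaSC against 5.89 to 6.17 in LP, and that of leukocyte markers 6.03 to 6.88 against 5.69 to 6.32. The calls of Mfap2, Pdgfra and Fbln2 were each lost when any of several arrays was left out: Mfap2 without each MaSC array, LP replicate 2 or LP replicate 3 (adjusted p 0.0626 to 0.145), Pdgfra without each MaSC array, LP replicate 1 or LP replicate 2 (0.0652 to 0.146), and Fbln2 without MaSC replicate 2, MaSC replicate 3 or any LP array (0.0514 to 0.0981). Vcan was lost without LP replicate 3 (adjusted p = 0.0531), and the other 21 calls passed whichever array was left out. The differences of Htra3 and Fap went from -3.56 to -4.25 and from -5.68 to -6.41 without MaSC replicate 1, and to -2.77 and -5.01 without MaSC replicate 3, while Aspn went from -6.01 to -6.66 without MaSC replicate 3.

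MaSC exceeded ML in 27 of the 36 genes and was lower in 1, Htra3, against 27.1% of all tested genes higher and 32.5% lower. A further probe set of Htra3 had the same sign but did not pass (-1.95, limma adjusted p = 0.0878). Nor did that probe set pass against LP (-1.77, adjusted p = 0.15). The median difference was 4.18 over the 36 genes and -0.07 over all genes. The largest were Fmod (8.49 ± 0.64 SE), Fstl1 (8.02 ± 0.45), Postn (7.85 ± 0.50), Lox (6.56 ± 0.58) and Eln (6.48 ± 0.36). Pi16 (0.01), Mfap4 (0.10), Dcn (-0.14), Pcolce (0.16), Clec3b (0.61), Aspn (1.27), Tnxb (-1.25) and Fap (-1.85) did not pass. Of 12 fibroblast collagens 11 were higher in MaSC and 1, Col6a3, lower, and of 29 other matrix and fibroblast genes 19 were higher and 0 lower. All 28 calls passed whichever array was left out, and Fap passed too without MaSC replicate 1 (-2.58, limma adjusted p = 0.021) and Tnxb without ML replicate 3 (-1.68, adjusted p = 0.0321). With array weights Lum went from 1.53 to 0.88 and no longer passed (adjusted p = 0.0853), while Fap and Tnxb passed (0.0191 and 0.0198). Htra3 went from -3.06 to -3.75 without MaSC replicate 1 and to -2.27 without MaSC replicate 3, Fbln1 from 6.03 to 5.08 without ML replicate 2 and to 6.87 without ML replicate 3, Sparc from 6.09 to 5.45 without ML replicate 2, and Postn to 8.44 without ML replicate 3. With arrays centred on their medians the median of all genes was -0.31, the share of called genes higher in MaSC went from 45.5% to 27.8%, and the 36 genes gave 27 higher and 3 lower, Fap and Tnxb joining Htra3.

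Between marked virgin cells (ALP) and LP, 5 of the 36 genes were higher in ALP (Fmod, Mfap4, Tnc, Postn and Eln) and 0 lower, against 3.58% of all tested genes higher and 3.97% lower, and 31 did not pass. Fmod was 36.9-fold higher (5.21 ± 0.64 SE, limma adjusted p = 0.00131), Mfap4 13.4-fold (3.74 ± 0.32, adjusted p = 0.000204), Tnc 6.04-fold (2.59 ± 0.28, adjusted p = 0.000768), Postn 5.60-fold (2.49 ± 0.50, adjusted p = 0.0151) and Eln 2.96-fold (1.56 ± 0.36, adjusted p = 0.0256). Without ALP replicate 3 the same 5 passed and again 0 were lower, at 4.38 for Fmod, 3.41 for Mfap4, 2.36 for Tnc, 1.91 for Postn and 1.05 for Eln, against 1.76% and 2.24% of all genes. The median over the 36 genes fell from 0.51 to 0.07 without that array, and the number with a positive difference from 32 to 18. Clec3b and Pi16 were then at -0.94 ± 0.31 SE (limma adjusted p = 0.118) and -0.85 ± 0.35 (adjusted p = 0.212). A p that misses the threshold does not show that the other 31 genes were alike in ALP and LP.

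**Figure D5:**
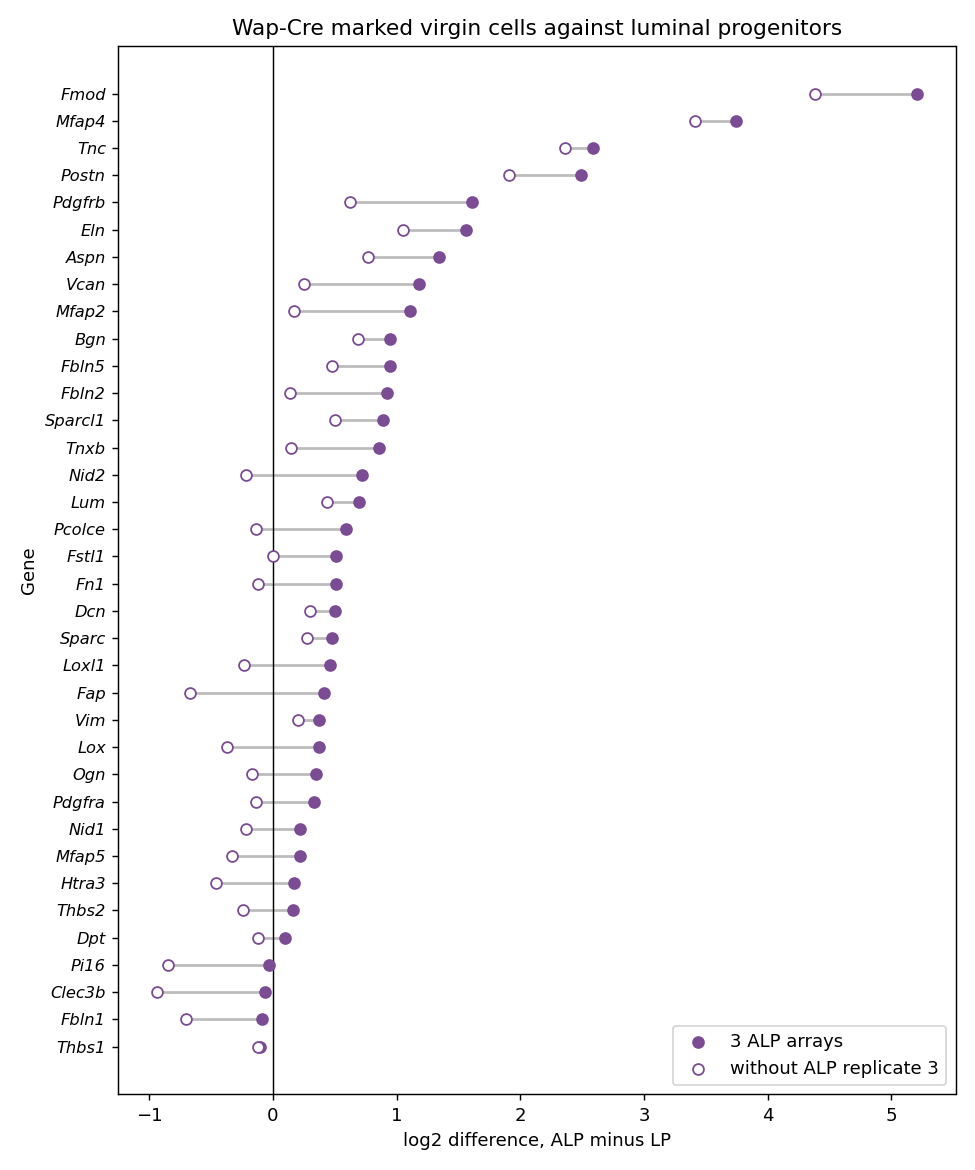
Log2 difference of ALP from LP (horizontal axis) for each of the 36 genes (vertical axis), with filled points for all 3 ALP arrays and open points without ALP replicate 3. Fmod, Mfap4, Tnc and Postn stay at 1.91 or above either way, while most other genes move towards or below 0 without that array.

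The basal list was higher in ALP than in LP in every array, at 9.31 to 11.84 against 7.87 to 8.11, with 4 of 10 markers passing (Mylk 4.66, Acta2 3.52, Myh11 4.22 and Krt5 3.24 on the log2 scale). The endothelial list was at 7.96 to 10.92 against 5.89 to 6.17, with 6 of 7 tested markers higher, and the leukocyte list at 7.16 to 11.90 against 5.69 to 6.32, with 1 of 8 (Cd74) higher. Of the pericyte markers Rgs5 was higher (6.63) and of 29 other matrix and fibroblast genes Meox1 was higher (3.39), while 0 of 12 collagens passed. The part of basal, vascular or other stromal cells in the differences of Fmod, Mfap4, Tnc, Postn and Eln was not tested. Fmod, Mfap4 and Tnc passed whichever array was left out, and Postn and Eln were lost without LP replicate 2 (adjusted p 0.0553 and 0.0902) or LP replicate 3 (0.0523 and 0.0794), which left 3 calls. In the fit of ALP and LP alone none of the 5 passed by limma (adjusted p 0.0575 to 0.164, with 7 of the 36 genes at an unadjusted p under 0.05). With arrays centred on their medians the median of all genes was -0.19, the share of called genes higher in ALP went from 47.4% to 28.3%, and the same counts of 5 and 0 were found.

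ALP exceeded ML in 35 of the 36 genes and was lower in 0, against 21.1% of all tested genes higher and 15.6% lower, Htra3 being the one that did not pass (0.67, limma adjusted p = 0.502). The median difference was 5.50, against -0.02 over all genes, and it was led by Dpt (8.99 ± 0.43 SE), Aspn (8.63 ± 0.65) and Ogn (8.51 ± 0.46). Without ALP replicate 3 the count was again 35 and 0, with a median of 4.88, against 20.3% and 20.9% of all genes. The differences of 15 genes moved by over 1.5-fold without that array, most for Fap (from 4.24 to 3.16), Pdgfrb (5.88 to 4.88), Nid2 (2.27 to 1.32), Mfap2 (3.22 to 2.29) and Vcan (4.61 to 3.68). The others were Clec3b (6.07 to 5.19), Fmod (5.62 to 4.79), Pi16 (7.55 to 6.74), Fbln2 (4.01 to 3.23), Lox (7.73 to 6.99), Pcolce (1.87 to 1.13), Tnxb (3.91 to 3.20), Loxl1 (7.92 to 7.22), Fn1 (4.83 to 4.21) and Fbln1 (5.38 to 4.77). Without ALP replicate 1 Pdgfrb went to 6.47, without ML replicate 2 Fbln1 went from 5.38 to 4.43 and Sparc from 5.77 to 5.13, and without ML replicate 3 Dcn went from 2.29 to 2.92, Fbln1 to 6.22 and Postn from 6.69 to 7.28. The basal list was at 9.31 to 11.84 in ALP against 6.93 to 7.68 in ML, with 10 of 10 markers higher, and 6 of 8 tested leukocyte markers, 5 of 7 endothelial markers, 4 of 5 pericyte markers and 11 of 12 fibroblast collagens were higher in ALP and 0 lower. The part of these cells in the differences was not tested. In the fit of ALP and ML alone Pcolce and Nid2 no longer passed (adjusted p 0.0889 and 0.0975). With arrays centred on their medians the median of all genes was -0.43 and the share of called genes higher in ALP went from 57.5% to 18.6%, with 35 of the 36 genes higher and 0 lower and a median of 5.09 over them.

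Marked cells of midgestation (AL) were higher than LP in 4 of the 36 genes (Fmod, Tnc, Mfap4 and Postn) and lower in 7 (Pi16, Clec3b, Htra3, Tnxb, Ogn, Thbs2 and Dpt), against 21.3% of all tested genes higher and 24.2% lower. Fmod was 52.7-fold higher (5.72 ± 0.64 SE, limma adjusted p = 3.97e-05), Tnc 17.3-fold (4.11 ± 0.28, adjusted p = 1.62e-06), Mfap4 6.30-fold (2.66 ± 0.32, adjusted p = 6.21e-05) and Postn 4.48-fold (2.16 ± 0.50, adjusted p = 0.00437). Pi16 was 9.80-fold lower (-3.29 ± 0.57 SE, limma adjusted p = 0.000721), Clec3b 5.79-fold (-2.53 ± 0.58, adjusted p = 0.00429), Tnxb 4.34-fold (-2.12 ± 0.56, adjusted p = 0.0096), Ogn 3.95-fold (-1.98 ± 0.46, adjusted p = 0.00434) and Thbs2 2.90-fold (-1.54 ± 0.39, adjusted p = 0.00756). The median over the 36 genes was -0.50, against -0.03 over all genes. None of 12 collagens passed in either direction, by limma at an adjusted p under 0.05, and of 29 other matrix and fibroblast genes 1 (Meox1) was higher and 13 lower, by t first Prelp (-3.34), Gsn (-1.53) and Timp1 (-1.65).

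The basal list was at 10.59 to 10.96 in AL against 7.87 to 8.11 in LP, with 8 of 10 markers higher, the endothelial list at 7.11 to 7.46 against 5.89 to 6.17, with 4 of 7 higher (Emcn, Cldn5, Esam and Vwf), and the leukocyte list at 7.45 to 8.15 against 5.69 to 6.32, with 1 of 8 higher (Cd74). The part of these cells in the higher genes was not tested. Htra3 (-2.12) and Dpt (-1.17) were each lost when any of 5 arrays was left out: Htra3 without LP replicate 1, LP replicate 2 or any AL array (adjusted p 0.053 to 0.107), and Dpt without any LP array, AL replicate 2 or AL replicate 3 (0.0607 to 0.140). The other 9 calls passed whichever array was left out. Fitted on the LP and AL arrays alone, 6 of the 36 genes were higher and 14 lower, and with array weights 6 were higher and 17 lower, the same 11 being among them both times. Arrays centred on their medians gave 5 higher and 7 lower, Eln and Mfap5 passing and Dpt not, with the share of all called genes higher in AL moving from 46.8% to 60%.

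AL exceeded ML in 31 of the 36 genes and was lower in 0, against 28.7% of all tested genes higher and 24.8% lower. The median difference was 4.42, against 0.03 over all genes, and it was led by Dpt (7.72 ± 0.43 SE), Lum (7.32 ± 0.43) and Sparcl1 (7.11 ± 0.41). Dcn (0.79), Tnxb (0.93), Pcolce (0.15), Nid2 (1.39) and Htra3 (-1.63) did not pass, and Dcn passed without ML replicate 3 (1.42, limma adjusted p = 0.00717). The basal list was at 10.59 to 10.96 in AL against 6.93 to 7.68 in ML, with 9 of 10 markers higher, and 4 of 5 pericyte markers, 2 of 8 leukocyte markers (Laptm5 and Cd74) and 10 of 12 fibroblast collagens were higher in AL and 0 lower, while of 7 endothelial markers 4 were higher and Eng was lower. The part of these cells in the differences was not tested. All 31 calls passed whichever array was left out. Fbln1 went from 3.60 to 2.64 without ML replicate 2 and to 4.44 without ML replicate 3, Sparc from 5.61 to 4.97 without ML replicate 2, and Postn from 6.37 to 6.96 without ML replicate 3. With arrays centred on their medians Htra3 passed as lower (-1.76, limma adjusted p = 0.0431), the median of all genes was -0.11, and the share of called genes higher in AL went from 53.7% to 41.0%.

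Between the marked populations, 1 of the 36 genes was higher in AL (Tnc) and 15 were lower, against 18.7% of all tested genes higher and 21.2% lower. Tnc was 2.87-fold higher at midgestation (1.52 ± 0.28 SE, limma adjusted p = 0.00151). The lower genes were led by Pi16 (-3.26 ± 0.57 SE, 9.57-fold, adjusted p = 0.000926), Tnxb (-2.98 ± 0.56, adjusted p = 0.00162), Clec3b (-2.48 ± 0.58, adjusted p = 0.00575), Ogn (-2.33 ± 0.46, adjusted p = 0.00202) and Thbs2 (-1.69 ± 0.39, adjusted p = 0.00513), and held 3 of 6 proteoglycans and 4 of 7 elastic fibre genes. The others were Htra3, Aspn, Pcolce, Fbln2, Dcn, Fbln5, Dpt, Mfap5, Pdgfra and Mfap4. Without ALP replicate 3 there were 2 higher (Tnc at 1.76 and Fmod, which went from 0.51 to 1.34 with an adjusted p of 0.0476) and 7 lower, against 21.8% and 18.8% of all genes, and the median over the 36 genes went from -1.11 to -0.63. The 7 were Pi16 (-2.44), Tnxb (-2.27), Ogn (-1.81), Clec3b (-1.59), Thbs2 (-1.30), Pcolce (-0.98) and Fbln2 (-0.85).

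In that comparison 0 of 12 collagens passed in either direction by limma at an adjusted p under 0.05, and of 29 other matrix and fibroblast genes 0 were higher and 20 lower, by t first Prelp (-3.38), Gsn (-1.61) and Timp1 (-1.79). The endothelial list was at 7.11 to 7.46 in AL against 7.96 to 10.92 in ALP, with 5 of 7 tested markers lower in AL, and the leukocyte list at 7.45 to 8.15 against 7.16 to 11.90. The part of these cells in the lower genes was not tested. Leaving out AL replicate 2 left 9 calls (adjusted p 0.0535 to 0.0677 for the 7 lost) and leaving out AL replicate 3 left 6 (0.0568 to 0.118 for the 10 lost), and 6 calls (Tnc, Pi16, Tnxb, Clec3b, Ogn and Thbs2) passed whichever array was left out. Fbln2 and Aspn were also lost without AL replicate 1 (adjusted p 0.0647 and 0.0677), Dpt without ALP replicate 1 (0.0502) and Htra3 without ALP replicate 2 (0.0597), while Eln, Fn1, Nid1 and Pdgfrb passed without ALP replicate 1, and Lox and Sparcl1 without ALP replicate 2. Without ALP replicate 1 Htra3 went from -2.30 to -2.93. In the fit of AL and ALP alone 1 was higher and 9 lower, and Clec3b was among the calls lost (adjusted p = 0.0629). With arrays centred on their medians the median of all genes was 0.26, the share of called genes higher in AL went from 47.0% to 74.0%, and the 36 genes gave 1 higher and 14 lower, Dpt no longer passing. The 8 comparisons share populations, LP, ML and ALP each standing in several, so their counts are not independent of each other.

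Of the 36 genes, 22 had more than 1 passing probe set, and the other probe sets were compared with those used. Among genes called between LP and ML, 24 of 24 further probe sets had the same sign and 23 passed the same test, and between MaSC and LP 20 of 20 had the same sign and 18 passed. For ALP against LP 7 of 7 had the same sign and 5 passed, and with the mean of all passing probe sets per gene Tnc and Eln no longer passed there (adjusted p 0.0718 and 0.0571). For AL against ALP 9 of 9 had the same sign and 5 passed. Those of Tnc (limma adjusted p = 0.0558), Thbs2 (0.0959 and 0.135) and Mfap5 (0.145) did not. These counts leave out genes not called with the probe set used, and for some of those a further probe set passed. Besides Sparc and Thbs1, examples by limma were Fbln1 (adjusted p 0.0253 and 0.0218), Vim (0.0156 and 0.0332) and Nid1 (0.0183) in AL against ALP. Htra3 (0.0265) was another, in AL against ML. The probe sets used for Fmod, Vim and Aspn are of types that can also bind related transcripts, so their levels may include those of other genes.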

How the data were processed

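RNA of sorted cells was extracted with RNeasy, amplified with the NuGEN Ovation V2 system and hybridised to Affymetrix Mouse Genome 430 2.0 arrays. The deposited values are linear probe set intensities that the authors normalised with dChip. For dChip, the version, expression model and baseline array were not given in the sources used here. Each array gave 45101 probe sets, of which 34945 carried 1 gene symbol in the platform annotation, 932 several and 9160 none, besides 64 controls, and only those with 1 symbol were used. Normalisation scales arrays to each other, so all differences are relative, but array medians of the deposited values still ran from 136.8 to 209.9. The number of arrays limits the precision.

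Intensities below 1 were set to 1 (659 values were 0) and log2 was taken. Each gene was represented by its brightest probe set over the 15 arrays and kept if it exceeded the array median in at least 3 arrays. One linear model with a mean per population was fitted to all 15 arrays with lmFit and eBayes (limma 3.58.1, R 4.3.3), with Benjamini-Hochberg adjustment over 12107 genes, two-sided tests and a threshold of 0.05, and it was tested on simulated data. Folds are ratios of geometric means, and means ± SD are of linear intensities. Values of every array are given for the 3 genes of each role group (both nidogens) with the widest range of population means and for genes highest in MaSC, ML or AL, and means or ranges for the rest. Other genes are named where a count was 5 or fewer, or as up to 3 with the largest moderated t statistics. The 38 genes, the marker lists and the tests were chosen with earlier results of these data known. The alternatives were 16 added to every intensity, no or a stricter filter (6 arrays), quantile normalisation, centring on array medians, the mean of all probe sets, fits of only the populations compared, array weights, the replicate number as a block, and leaving out each array. Replicate numbers are not stated to mark the cell suspension, and deviations of same-numbered MaSC, LP and ML arrays correlated at -0.01 to 0.17, and the main design had no block. Promoter windows were searched on both strands.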

Additional observations from a re-analysis of the deposited data

How the results depend on the processing

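No count reversed direction under any alternative. Of the single gene results, under the settings other than leaving out an array, 2582 kept their side of the threshold, 77 passed only there and 33 no longer passed. No single gene result that passed in either fit changed direction, and direction was not compared where neither fit passed. Fitted on the compared populations alone, the count for ALP against LP went from 5 to 0. By limma, 7 of the 36 genes there had an unadjusted p under 0.05, against 8 in the fit of all arrays. The count went from 25 to 30 for MaSC against LP, from 11 to 20 for AL against LP and from 16 to 10 for AL against ALP. These fits estimate the spread from fewer arrays, and only from those of the compared populations. Array weights, of which that of ALP replicate 3 was lowest at 0.22, gave 23 for AL against LP. Leaving out 1 array at a time gave 31 to 32 for LP against ML, 22 to 23 for MaSC against LP, 28 to 29 for MaSC against ML, 3 to 5 for ALP against LP, 35 for ALP against ML, 9 to 10 for AL against LP, 31 to 32 for AL against ML and 6 to 19 for AL against ALP. The replicate block over all 15 arrays gave 32, 23, 28, 5, 35, 12, 31 and 15 in that order, and over the 9 arrays of MaSC, LP and ML it gave 34, 27 and 30. Over all 15 arrays the block lost Nid2 in LP against ML (adjusted p = 0.07), Mfap2 and Pdgfra in MaSC against LP (0.0596 and 0.0738) and Pdgfra in AL against ALP (0.0502), and Fbln1 passed in AL against LP (0.0483). Over the 9 arrays, which also leave out AL and ALP, Pcolce passed in LP against ML (0.0024) and MaSC against LP (0.00512), Nid2 in MaSC against LP (0.00978), and Fap and Tnxb, lower, in MaSC against ML (0.016 and 0.0205). The block moved no count by over 1.5 times, and the numbers are not shown to pair the arrays. Levels near the low end of an array, as in ML for most of these genes, limit the precision of folds against them.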
